A study of Mus musculus with 18 samples.

Results

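The complement genes C1qa, C1qb, C1qc, C4b, C2, C3, Serping1, Cd55 and Cd59a were described in mouse skeletal muscle. They were taken by name from the deposited expression table, where all 9 have a row among 12558 genes. All 9 passed the filter on low values, a level of at least 1 CPM (read counts scaled to library depth by the authors) in at least 3 libraries. RNA was sequenced in 18 libraries, 3 labelled biological replicates in each of 6 groups.

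The first 4 groups were wild-type mice that ate normal chow or a high-fat diet (HFD) for 10 weeks, either untreated or given a compound labelled AQ in their drinking water. They are called untreated chow, AQ chow, untreated HFD and AQ HFD here, and the labels do not spell out AQ. The remaining groups were Nurr1 transgenic mice (Nurr1-mTg) and a wild-type control group of their own, both on HFD for 10 weeks and with no AQ named for them. These are called transgenic HFD and transgene-control HFD. Sources used here do not give the promoter that drives the transgene, the muscle taken, the mice's age and sex, or any pooling of animals. P-values therefore measure the spread between labelled biological replicates only.

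Complement is a cascade of plasma and membrane proteins that tags surfaces for removal and can puncture membranes. In the classical pathway C1q, built from the products of C1qa, C1qb and C1qc, recognises a surface. The proteases bound to C1q then cleave C4 and C2, which together form an enzyme that cleaves C3, the component on which all routes of activation meet. Serping1 encodes the C1 inhibitor, Cd55 a membrane protein that takes apart C3-cleaving enzymes, and Cd59a a membrane protein that blocks the final pore. Most circulating C3 and C4 comes from liver, while C1q is made largely by macrophages and related cells, so RNA for these genes in muscle can come from resident cells of several types. In bulk tissue, fewer cells of a type and less RNA per cell cannot be told apart.

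Libraries held 10404895 to 16082994 reads, and 3 reads lay at 0.191 to 0.277 CPM, a floor that covers counting error only. All 10 skeletal muscle markers were high in every library, for example Myh4 at 37720 to 59040 CPM and Acta1 at 26080 to 47970 CPM. Nr4a2, which encodes NURR1, was at 18.8 to 30.1 CPM in transgenic muscle and at 0.828 to 4.79 CPM in the other 15 libraries. Replicate 1 of the transgene controls stood apart. Its summed level of the 9 complement genes was 451.7 CPM against 299.2 and 306.7 CPM in the other libraries of its group, and it was the highest of its group for each of the 9 genes. Its summed adipocyte markers (251.8 CPM against 111.1 and 104.4) and fibroblast markers (3153 CPM against 2015 and 2110) were also the highest of the group.

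The genes lie on chromosomes 1, 2, 4 and 17, and several have near copies, which bears on what a row of the table counts. Coordinates are those of GRCm38 (GENCODE release M21), and all 9 genes are protein-coding. C1qa (chromosome 4, 136895917 to 136898803), C1qc (136889804 to 136893065) and C1qb (136880129 to 136886187) sit next to each other on the minus strand. No run of 50 bases, the read length, in their exons occurs in another gene, and the same held for C3 (chromosome 17, 57203970 to 57228136, minus strand) and Serping1 (chromosome 2, 84765387 to 84775444, minus strand). C4b (chromosome 17, 34728380 to 34743882, minus strand) shares 34.6% of its 50-base runs with C4a, which has no row in the table used here. C2 (chromosome 17, 34862604 to 34898265, minus strand) shares 41.5% with other genes, chiefly the read-through gene Gm20547, and overlaps Zbtb12 on the other strand. Cd55 (chromosome 1, 130439027 to 130462744, minus strand) shares 9.12%, mostly with Cd55b, and Cd59a (chromosome 2, 104095801 to 104115354, plus strand) shares 3.87% with Cd59b. Sources used here give neither how the authors' counting split such reads nor whether it used strand, so C4b and C2 values could include reads of these neighbours.

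The C4b coding sequence of 5214 bases aligned to C4a with 201 mismatches over 5204 bases, an identity of 96.1%. The 50-base window with the most mismatches shows where a read tells the genes apart. It is coding bases 2709 to 2758 of C4b, in exon 21 at chr17:34735436-34735485, and exon 21 of C4a at chr17:34816092-34816141, both on the minus strand of GRCm38. The 11 mismatched bases are in capitals, and each sequence is written 5′ to 3′ from the GENCODE transcripts.
C4b: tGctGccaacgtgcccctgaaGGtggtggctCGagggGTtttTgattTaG
C4a: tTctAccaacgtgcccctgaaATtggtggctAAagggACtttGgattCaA

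Upstream sequences are shown for C1qb, because the C1q chains moved together across libraries, and for C3, because it passed the test in a comparison. Both are the 250 bases before the RefSeq start site (GRCm38.p6), on the minus strand. Capitals mark GAGGAA in C1qb, the core read by ETS family factors such as PU.1, and TTGCNNAA in C3, the core of a C/EBP site. Both strands were searched, and neither match overlapped another motif searched (the other was the STAT motif TTCNNNGAA).
C1qb, chr4:136886201-136886450: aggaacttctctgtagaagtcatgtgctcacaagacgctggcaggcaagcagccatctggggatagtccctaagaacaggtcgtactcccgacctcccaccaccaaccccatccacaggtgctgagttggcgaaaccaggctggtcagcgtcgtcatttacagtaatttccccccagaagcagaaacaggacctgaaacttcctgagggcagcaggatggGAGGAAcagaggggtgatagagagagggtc
C3, chr17:57228137-57228386: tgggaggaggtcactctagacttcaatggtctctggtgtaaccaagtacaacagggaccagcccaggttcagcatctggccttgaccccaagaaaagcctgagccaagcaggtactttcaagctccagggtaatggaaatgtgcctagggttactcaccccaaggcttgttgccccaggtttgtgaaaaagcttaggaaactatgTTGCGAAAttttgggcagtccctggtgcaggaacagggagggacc
The match in C1qb began at position -30 from the start site and that in C3 at -45. GAGGAA also occurred upstream of C1qc, at -193, and of Cd59a, at -62, while Cd55 held none of the motifs searched. Sources used here hold no upstream sequence for C1qa, C4b, C2 and Serping1. Among 32851 promoter windows of this length, GAGGAA occurred in 23.3% and TTGCNNAA in 9.56%, so each is a common string and is given as a description only.

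Levels per length spanned a wide range. On the scale of CPM per kilobase of exon, averaged over the 18 libraries, Serping1 was highest at 49.9. C3 was at 17.3, C1qa at 16.4, C1qb at 15.2, Cd55 at 12, Cd59a at 9.71 and C1qc at 9.39. C4b lay at 2.89 and C2 at 1.01 CPM per kilobase. RNA of the fluid-phase inhibitor of the first step was thus the most abundant of the set in muscle, and that of C2 the least, with 25 to 97 reads per library.

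**Figure D1:**
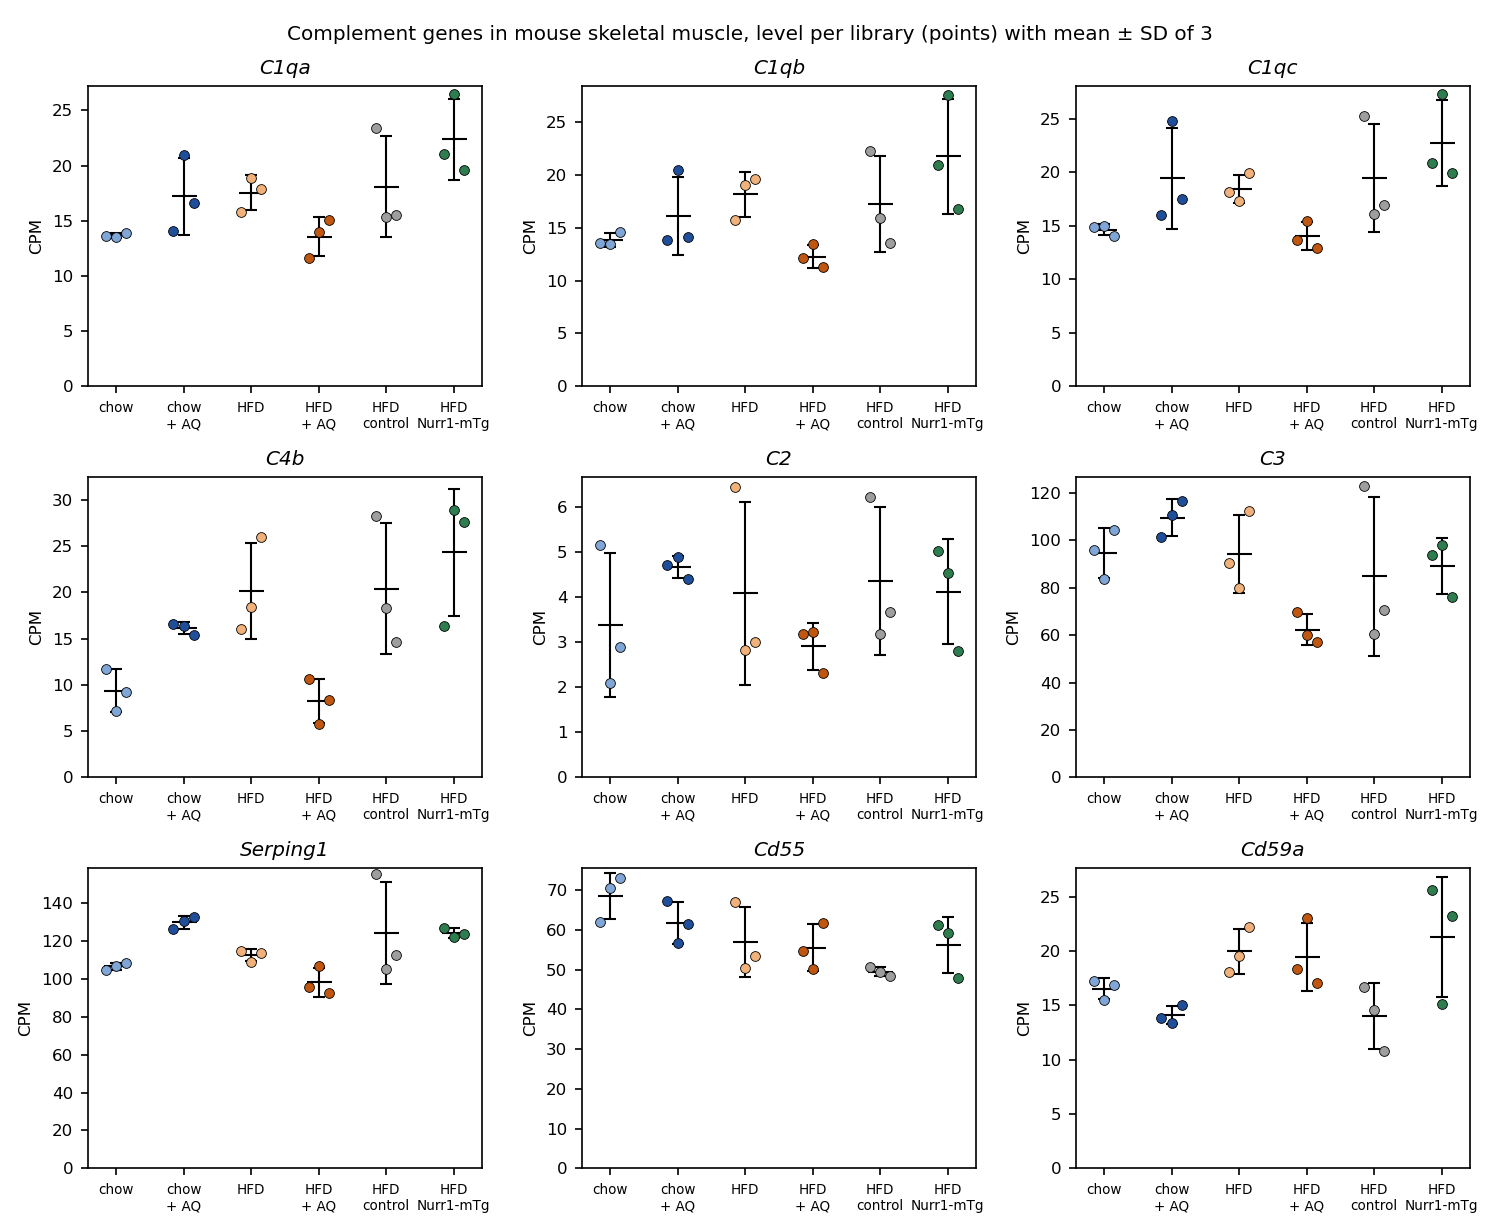
Level of each of the 9 complement genes in CPM (vertical axis, from 0) in the 6 groups (horizontal axis), with a point per library and a bar for the mean ± SD of 3 libraries. C4b ranged from a mean of 8.26 CPM in AQ HFD to 24.3 CPM in transgenic HFD, and replicate 1 of the transgene controls is the high grey point in the panels of C1qa, C1qb, C1qc, C3, C4b, C2 and Serping1.

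C4b varied most between groups, and the order of its groups depended on both diet and AQ. In wild-type mice it lay at 11.7, 7.17 and 9.25 CPM on untreated chow and at 16.6, 16.4 and 15.4 CPM on AQ chow. On HFD it lay at 16.04, 18.4 and 26 CPM without AQ and at 10.6, 5.81 and 8.32 CPM with AQ. AQ chow was thus above untreated chow in all libraries, and AQ HFD below untreated HFD in all libraries. The transgene controls lay at 28.3, 18.3 and 14.6 CPM and the transgenic muscles at 16.4, 28.9 and 27.7 CPM, which overlapped. The highest group mean of C4b was 2.95 times the lowest. For the other 8 genes this ratio was 1.32 to 1.77. In the order of C4b means, from transgenic HFD (24.3 ± 6.9 CPM) through transgene-control HFD (20.4 ± 7.1), untreated HFD (20.2 ± 5.2) and AQ chow (16.1 ± 0.66) to untreated chow (9.38 ± 2.3) and AQ HFD (8.26 ± 2.4; SD, n = 3), AQ chow and untreated chow were the only neighbours whose libraries did not overlap.

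The response of C4b to AQ differed between the diets. AQ minus untreated was 0.75 ± 0.251 (SE) on chow and -1.20 ± 0.251 on HFD, on the log2(CPM + 1) scale, which understates changes of low genes. Neither passed the threshold by itself (limma adjusted p = 0.161 and 0.0722). The AQ difference on HFD minus that on chow was -1.94 ± 0.355 (95% interval -2.69 to -1.20), with an adjusted p of 0.0253 in limma. That comparison called 1 of the 9 genes, C4b, where 0.711% of the 12524 genes tested were called in either direction and 0.583% as lower. Over the other fits and tools run on all libraries the adjusted p of C4b stayed at or below 0.0494. It rose above the threshold of 0.05 when AQ chow replicate 2 (adjusted p = 0.0607) or 3 (0.0514), or AQ HFD replicate 2 (0.0541) or 3 (0.0789), was left out, with a difference of -1.93, -1.98, -1.74 and -1.97.

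Of the other complement genes of the set, 6 had the same sign in that comparison (48.7% of all genes lay below 0) and Cd55 and Cd59a the opposite one, and none passed the threshold. The log2 difference of differences was -0.65 ± 0.224 for C1qa, -0.71 ± 0.254 for C1qb and -0.74 ± 0.230 for C1qc, with limma adjusted p of 0.193, 0.213 and 0.148. It was -0.79 ± 0.267 for C3 (adjusted p = 0.182), -0.75 ± 0.387 for C2 (0.392) and -0.48 ± 0.142 for Serping1 (0.127). With C4b, 6 of the 9 lay lower at an unadjusted p under 0.05, against 8.44% of all genes tested. The median of the 9 genes was -0.71, and that of all genes 0.01. Cd55 and Cd59a, the membrane-bound regulators, had differences of 0.12 ± 0.159 and 0.18 ± 0.237.

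**Figure D2:**
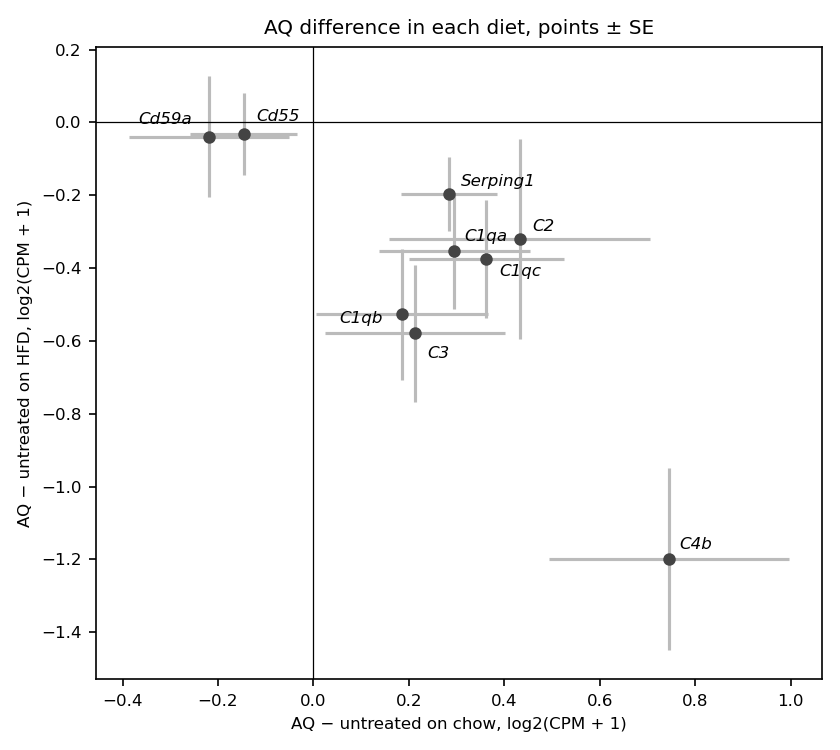
AQ minus untreated on chow (horizontal axis) and on HFD (vertical axis) for each of the 9 genes, as differences on the log2(CPM + 1) scale with standard errors from limma. C4b lies farthest from the axes at 0.75 and -1.20, the C1q chains, C2, C3 and Serping1 lie between 0.18 and 0.43 on chow and between -0.20 and -0.58 on HFD, and Cd55 and Cd59a lie near 0 on HFD.

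Adipocyte markers moved with the C4b levels, also within groups, and markers of other cell types did so less. Summed adipocyte markers (Adipoq, Plin1, Cidec, Lep, Retn and Cfd, none at 0 in any library; Cfd, factor D, is also a complement gene) were 42.5 to 103.4 CPM on untreated chow and 80.1 to 130.6 on AQ chow. They were 109.7 to 159.2 CPM on untreated HFD and 47.0 to 96.4 on AQ HFD. Of these sums, Cfd alone held 24.2 to 58.9 CPM on untreated chow and 48.7 to 83.3 on AQ chow. It held 20.3 to 39.8 CPM on untreated HFD and 28.9 to 31.8 on AQ HFD. In the difference of AQ effects all 6 adipocyte markers lay below 0 with a median of -1.78, 0 were called by limma and 5 had an unadjusted p under 0.05. All 6 leukocyte markers also lay below 0 (median -0.74, 0 called), as did 10 of 11 macrophage markers (median -0.57, 0 called) and 8 of 10 fibroblast markers (median -0.86, 3 called). Over the 18 libraries the Pearson r of C4b with the mean log2 level of the adipocyte markers was 0.879 (Spearman 0.858). It was 0.811 without the 2 libraries farthest from the median and 0.75 after removal of group means. Over the 18 libraries the r of C4b was 0.749 with leukocyte, 0.675 with fibroblast, 0.564 with macrophage and 0.453 with endothelial markers. After removal of group means these values were 0.321, -0.232, 0.0148 and 0.428. C3 had an r of 0.331 with the adipocyte markers over the 18 libraries and 0.723 after removal of group means. These libraries share groups and depth scaling, and the part of any cell type in the C4b result, adipocytes included, was not tested.

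Among all named genes outside the set, the level of Cfb followed C4b most closely. Cfb encodes factor B, the protease of the alternative pathway, and lies 85 bases from C2, on the same chromosome as C4b. It had the highest correlation with C4b of all named genes (Pearson r 0.901, Spearman 0.891, 18 libraries), with an r of 0.893 without the 2 farthest libraries and 0.778 within groups. Cfb lay at 4.60, 4.24 and 4.43 CPM on untreated chow and 6.34, 6.69 and 7.62 on AQ chow. On HFD it lay at 7.54, 9.63 and 12.4 CPM without AQ and 6.12, 4.06 and 5.64 CPM with AQ, so that within each diet the AQ libraries did not overlap the untreated ones. Its difference of AQ effects was -1.32 ± 0.362, which missed the threshold (limma adjusted p = 0.0973). After Cfb came Ptk2b (r 0.888), Dram1 (0.879), Adipoq (0.874), Aoc3 (0.873), Cdo1 (0.872), Ywhab (0.872), Car5b (0.871), Vat1 (0.87) and Ifi27l2a (0.869). Adipoq encodes adiponectin, a hormone of adipocytes.

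**Figure D3:**
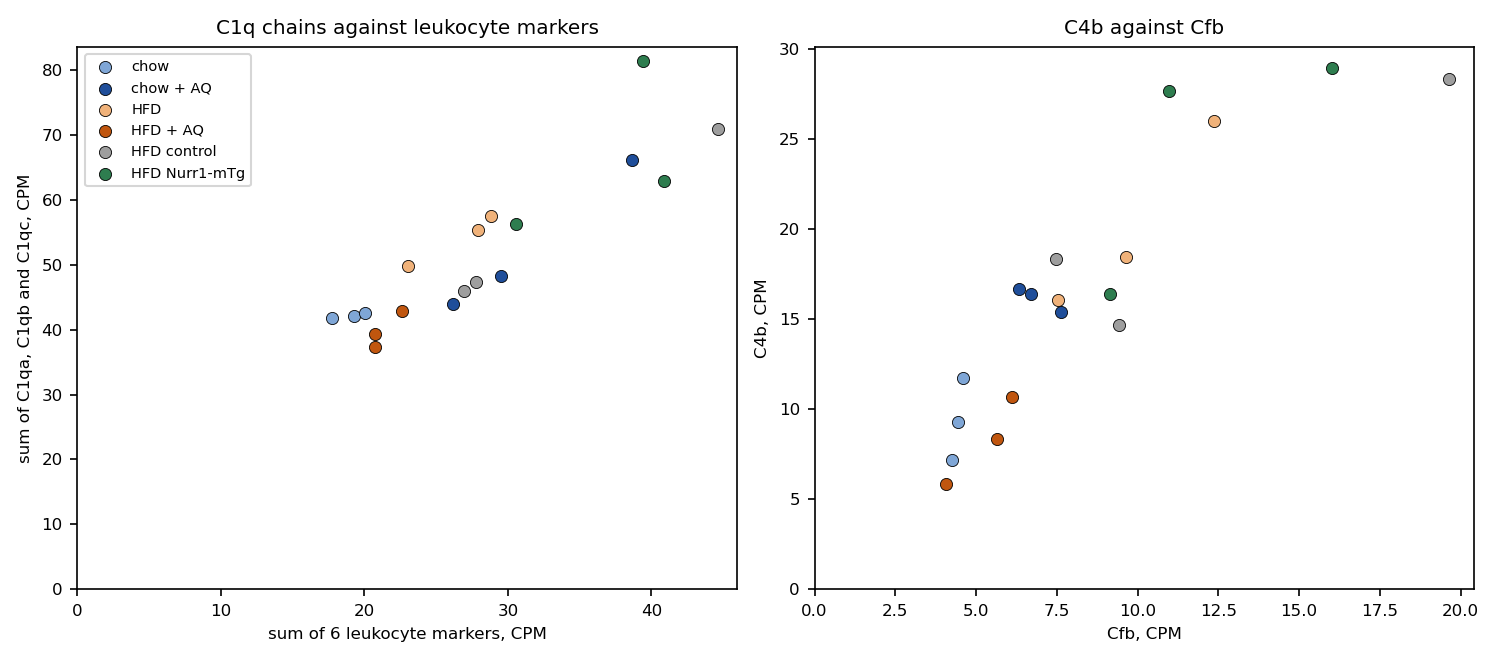
Left, summed CPM of C1qa, C1qb and C1qc (vertical axis) against summed CPM of 6 leukocyte markers (horizontal axis); right, C4b against Cfb in CPM; 1 point per library, coloured by group, axes from 0. AQ HFD and untreated chow libraries lie lowest in both panels, and replicate 1 of the transgene controls lies at 71.0 CPM of C1q chains and 28.3 CPM of C4b.

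The 3 C1q chains kept nearly fixed ratios to each other. Over the 18 libraries the log2 ratio of C1qa to C1qb had an SD of 0.137, where counting error alone gives 0.137. The ratio of C1qa to C1qc had an SD of 0.12 against 0.134 from counting, and that of C1qb to C1qc 0.134 against 0.135. The log2 level of each chain varied more, with SDs of 0.316, 0.346 and 0.313 for C1qa, C1qb and C1qc. Pairwise Pearson correlations were 0.92 to 0.929 over the 18 libraries and 0.842 to 0.883 within groups. Their ratios thus varied no more than the read counts allow, while their common level ranged from 37.4 to 81.4 CPM in sum.

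C1qa, the A chain, lay at 13.6, 13.5 and 13.9 CPM on untreated chow and at 14.1, 21.0 and 16.6 CPM on AQ chow. It lay at 15.8, 18.9 and 17.9 CPM on untreated HFD and at 11.6, 14.0 and 15.1 CPM on AQ HFD. The transgene controls lay at 23.4, 15.3 and 15.5 CPM and the transgenic muscles at 21.1, 26.5 and 19.6 CPM. Untreated chow was tight, and untreated HFD lay above both untreated chow and AQ HFD in all libraries. C1qb ranged from 11.3 to 27.6 CPM and C1qc from 12.9 to 27.3 CPM over the 18 libraries, and both had their highest group mean in transgenic HFD and their lowest in AQ HFD, as C1qa did. In the order of means, no neighbouring groups of C1qb were free of overlap, and for C1qa and C1qc only the step down to untreated chow was.

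The C1q level followed general leukocyte markers. The Pearson r of the mean of the 3 chains with the mean of Ptprc, Cd52, Coro1a, Laptm5, Tyrobp and Fcer1g was 0.918 over 18 libraries (Spearman 0.938), 0.894 without the 2 farthest libraries and 0.937 within groups. With 11 macrophage markers, such as Cd68, Mrc1 and Csf1r, it was 0.86 (Spearman 0.779), 0.781 and 0.77. The named genes most like the C1q mean were Myo1f (r 0.926), Rac2 (0.922), Cotl1 (0.908), Nfam1 (0.899) and Pf4 (0.885). Pld4 (0.884), Efemp2 (0.883), Unc93b1 (0.878), Sirpa (0.876) and the macrophage marker Mrc1 (0.869) came next. Summed leukocyte markers were 17.7 to 20.03 CPM on untreated chow, 26.1 to 38.6 on AQ chow, 23.0 to 28.8 on untreated HFD and 20.7 to 22.6 on AQ HFD. They were 26.97 to 44.6 CPM in transgene controls and 30.6 to 40.9 in transgenic muscle. None of 4 neutrophil markers, 5 T and B cell markers and 4 hepatocyte markers has a row in the table, and their part was not tested.

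HFD against chow in untreated wild-type mice asks what the diet alone did. In limma 0 of the 9 genes passed the threshold, where 0.0479% of all genes did. At an unadjusted p under 0.05 there were 3 of 9, C4b and C1qa higher and Cd55 lower, against 9.53% of all genes. The count was 0 in edgeR and 1 in DESeq2. C4b averaged 20.2 CPM on HFD and 9.38 on chow, a log2 difference of 1.02 ± 0.251 with a limma adjusted p of 0.166 (0.0162 in DESeq2). The C1q chains had differences of 0.32 to 0.36 with adjusted p of 0.524 to 0.556, and C3, at 94.3 against 94.7 CPM, one of -0.01 ± 0.189. For 6 of the 9 genes, namely the C1q chains, C4b, Serping1 and Cd59a, every HFD library lay above every chow library, as 6.32% of all genes did. Cd55 had a difference of -0.27 ± 0.112 (adjusted p = 0.457). Adipocyte markers were higher in 5 of 6 at an unadjusted p under 0.05 with a median of 1.36, and 0 were called. The other, Cfd, lay below 0, at 30.8 CPM on HFD against 42.3 on chow. All 6 leukocyte markers (median 0.42), 10 of 10 fibroblast markers (median 0.39) and 10 of 11 macrophage markers (median 0.27) lay above 0, with 3, 5 and 3 at an unadjusted p under 0.05 and 0 called. The part of these cell types was not tested.

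AQ against no AQ on HFD shares the untreated HFD libraries with that comparison, so each is given by its own values. All 9 genes lay below 0, as 49.5% of all genes did, with a median of -0.35 against 0.00 for all genes, but 0 of 9 passed the threshold in limma, where 0.0479% of all genes did. At an unadjusted p under 0.05, 5 were lower (the C1q chains, C3 and C4b), against 6.62% of all genes. The count was 0 in edgeR and 1 in DESeq2. C4b missed the threshold in limma (-1.20 ± 0.251, adjusted p = 0.0722) and passed it in DESeq2 (adjusted p = 0.0023). C3 averaged 62.4 CPM with AQ and 94.3 without, a difference of -0.58 ± 0.189 (adjusted p = 0.212), and C1qb 12.3 against 18.2 CPM, a difference of -0.53 ± 0.180 (adjusted p = 0.237). In the C1q chains, C3, C4b and Serping1, 6 genes, every AQ library lay below every untreated one, as 8.91% of all genes did. Adipocyte markers had a median of -1.23 with 5 of 6 below 0, and macrophage markers one of -0.35 with 11 of 11 below 0. In either list 0 were called. Fibroblast markers had a median of -0.57 with 9 of 10 below 0 and 0 called. Their part was not tested.

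AQ against no AQ on chow went the other way for most of the set. Of the 9 genes 7 lay above 0, as 48.3% of all genes did, with a median of 0.28, and 0 passed the threshold in limma, where 1.11% of all genes did. At an unadjusted p under 0.05, 3 were higher (C4b, C1qc and Serping1), against 8.74% of all genes, and edgeR and DESeq2 each called 0. Serping1 lay at 105, 107 and 108 CPM without AQ and at 126, 131 and 133 CPM with it, a difference of 0.28 ± 0.101 (adjusted p = 0.186). C4b had a difference of 0.75 ± 0.251 (adjusted p = 0.161) and C1qc one of 0.36 ± 0.163 (0.293). Without AQ chow replicate 2 the difference of C1qc was 0.18 ± 0.159 and that of C1qa 0.15 ± 0.164 in place of 0.29 ± 0.158. In C1qa, C1qc, C4b and Serping1, 4 genes, the AQ libraries lay above all untreated ones, as 10.9% of all genes did, and in Cd59a below, as 8.97% did. All 6 leukocyte markers were higher at an unadjusted p under 0.05 (median 0.49, 0 called), and 2 of 6 endothelial markers, Vwf and Cldn5, were called higher. Macrophage markers were mixed, with 8 of 11 above and 3 below 0 (median 0.17, 0 called). Their sum did not rise, at 128.7 to 151.3 CPM with AQ and 137.1 to 221.8 without. Their part was not tested.

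HFD against chow with AQ in both arms was the comparison with the most calls in the set. C3, C4b and Serping1 were lower on AQ HFD than on AQ chow, 3 of 9 genes, where limma called 10.6% of all genes in either direction and 5.68% as lower. C3, the central component, lay at 101, 111 and 117 CPM on AQ chow and at 70.0, 59.9 and 57.2 CPM on AQ HFD. Its log2 difference was -0.81 ± 0.189 (adjusted p = 0.0116). C4b had a difference of -0.92 ± 0.251 (adjusted p = 0.0260), from a mean of 16.1 CPM to 8.26. Serping1 lay at 95.7, 107 and 92.4 CPM on AQ HFD, below each AQ chow library, with a difference of -0.40 ± 0.101 (adjusted p = 0.0171). In 6 genes (C1qb, C1qc, C3, C4b, C2 and Serping1) the HFD libraries lay below all chow libraries, as 17.4% of all genes did, and in Cd59a above, as 15.8% did. C1qc (-0.42 ± 0.163, adjusted p = 0.107), C2 (-0.54 ± 0.274, 0.228) and Cd59a (0.43 ± 0.167, 0.109) missed the threshold. Without AQ chow replicate 2 the difference of C1qc was -0.24 ± 0.159. Cd59a was thus at 18.4, 23.0 and 17.1 CPM on AQ HFD and at 13.9, 13.4 and 15.01 CPM on AQ chow, the opposite direction to the 3 called genes.

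These 3 calls depended on single libraries and on scaling. C3 lost its call without AQ chow replicate 3 (adjusted p = 0.0552) or AQ HFD replicate 3 (0.0577). Serping1 lost it without AQ chow replicate 3 (0.0661) or AQ HFD replicate 1 (0.0577) or 3 (0.0811). C4b lost it without any of the 3 AQ chow libraries (0.0573 to 0.0788) or AQ HFD replicate 2 (0.114) or 3 (0.0733). With all columns rescaled to the same sum, C3 alone was called. In the same comparison 4 fibroblast markers (Col3a1, Col6a3, Mfap5 and Fbn1), Csf1r among macrophage markers and Laptm5 among leukocyte markers were also called lower. The fibroblast marker Lum was called higher (0.47, adjusted p = 0.0447), and 4 of 11 macrophage and 2 of 10 fibroblast markers lay above 0. Their part was not tested.

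**Figure D4:**
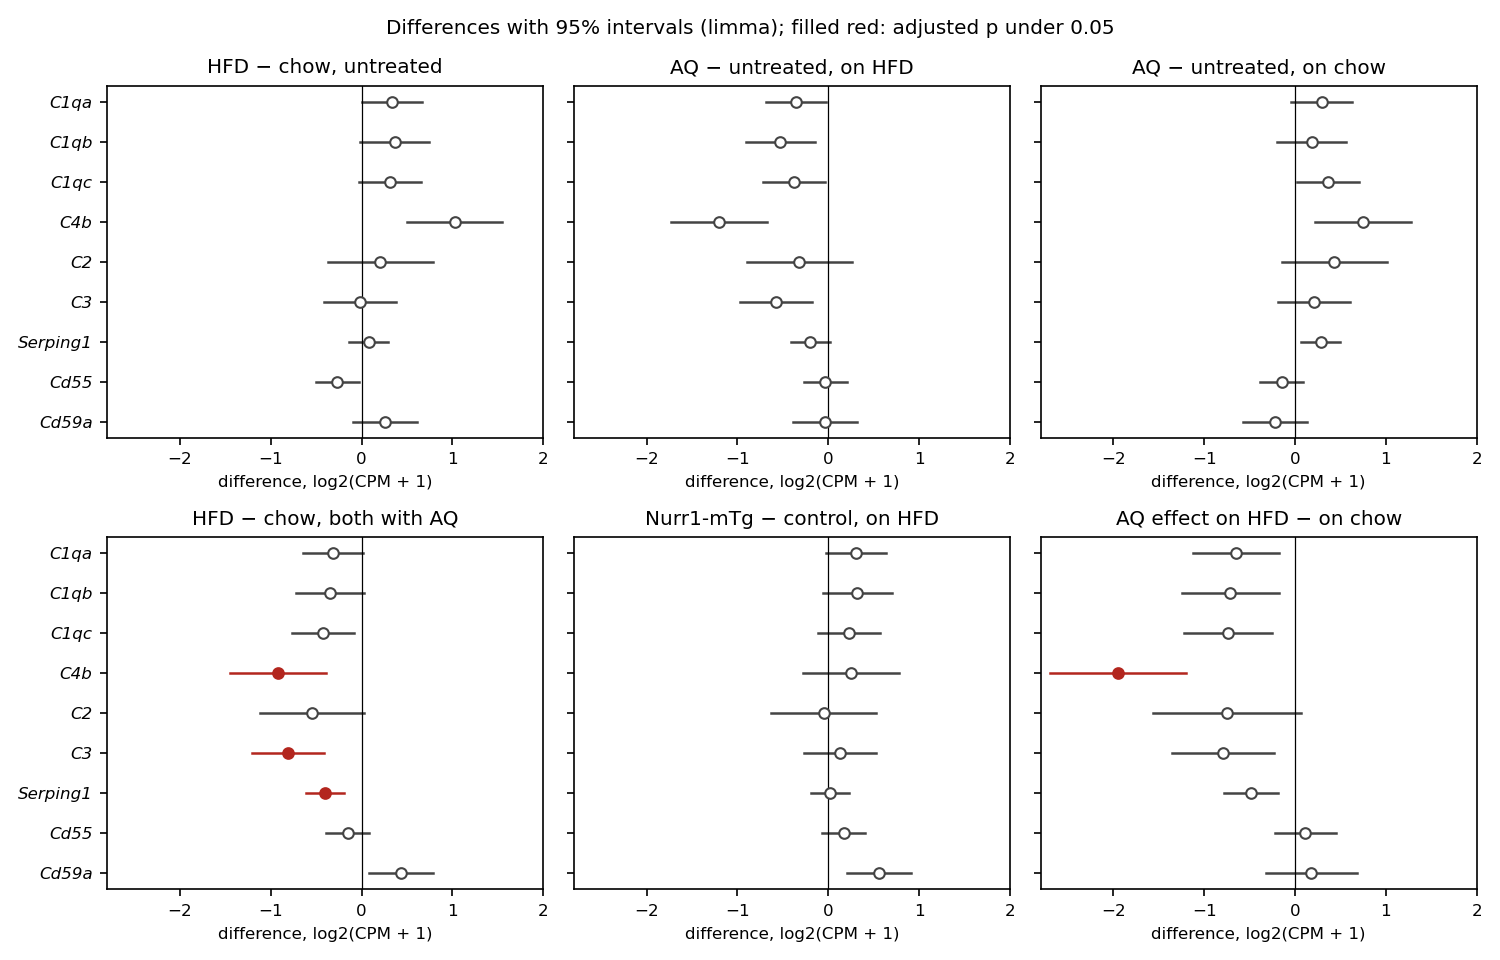
Difference of each of the 9 genes in 6 comparisons on the log2(CPM + 1) scale (horizontal axis) with 95% intervals from limma; filled red points have an adjusted p under 0.05. C4b is called in the difference of AQ effects at -1.94, and C3, C4b and Serping1 are called in HFD minus chow with AQ at -0.81, -0.92 and -0.40.

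The Nurr1 transgene against its controls on HFD gave 0 of 9 calls in limma, where 0.599% of all genes were called, and edgeR and DESeq2 each called 0. At an unadjusted p under 0.05 there was 1, Cd59a, against 8.95% of all genes. No gene of the set had groups that did not overlap, against 14.3% of all genes. Cd59a, the inhibitor of the pore, lay at 25.6, 15.1 and 23.3 CPM in transgenic muscle and at 16.7, 14.6 and 10.8 CPM in controls, with transgenic replicate 2 among the controls. Its difference was 0.56 ± 0.167 (adjusted p = 0.187), and it passed the threshold without transgenic replicate 2 (0.78, adjusted p = 0.0284). That library was the lowest of its group for Cd59a, so leaving it out could only raise the difference and is no test of the transgene. The 95% interval of C4b was -0.28 to 0.78 and that of C3 -0.27 to 0.53, which include differences in either direction. Serping1 averaged 124 ± 2.5 CPM in transgenic muscle and 124 ± 27 in controls (SD, n = 3).

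Control replicate 1 decided much of that spread. It was the highest of its group for each of the 9 genes, so leaving it out could only raise the differences. The values without it show how far they hang on 1 library and are no test of the transgene. Without it 6 of the 9 genes were higher in transgenic muscle at an unadjusted p under 0.05 (9.32% of all genes were at that level in either direction), and still 0 passed the threshold. C1qa then had a difference of 0.50 ± 0.149 (adjusted p = 0.217) in place of 0.31 ± 0.158, C1qb one of 0.51 ± 0.178 (0.310) and C3 one of 0.43 ± 0.141 (0.261) in place of 0.13 ± 0.189. C4b moved from 0.25 ± 0.251 to 0.50 ± 0.254 (0.563). With all libraries kept, macrophage markers lay at 128.7 to 364.0 CPM in sum in transgenic muscle and at 110.6 to 169.2 in controls. The 169.2 CPM is control replicate 1. In that fit 10 of 11 lay above 0 with 0 called, and their part was not tested.

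The untreated wild-type HFD libraries were also set against the transgene controls, which are wild type on HFD too. In limma 0 of 9 genes were called, where 4.46% of all genes were, and edgeR and DESeq2 each called 0. Cd59a was at 14.0 ± 3.0 CPM in transgene controls and 19.97 ± 2.1 in untreated HFD, a difference of -0.50 ± 0.167 (adjusted p = 0.101) with no overlap, and the single gene with an unadjusted p under 0.05 against 20.2% of all genes. Not overlapping and lower were 11.3% of all genes. Leaving out replicate 1 of the transgene controls, the highest of its group for every gene of the set, could only lower these differences. Without it C3 also reached an unadjusted p under 0.05 (-0.50 ± 0.141, adjusted p = 0.0714). Cd59a then had a difference of -0.63 ± 0.179 (adjusted p = 0.0783). C4b was at 20.4 and 20.2 CPM, a difference of 0.00 ± 0.251, or -0.26 ± 0.254 without that library. Cohort and any difference in handling between these groups cannot be told apart.

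The membrane regulator Cd55 ranged from 48.0 to 73.0 CPM over the 18 libraries, highest on untreated chow (62.0, 70.6 and 73.0 CPM) and lowest in transgene controls (50.8, 49.5 and 48.3 CPM). All neighbours in the order of its group means overlapped. Its Pearson correlations with the C1q chains and C4b over 18 libraries were -0.378 to -0.215, and those of Cd59a 0.00667 to 0.148. C2, the partner of C4 in the C3-cleaving enzyme, ranged from 2.09 to 6.43 CPM and was not called in the fit of all 6 groups. Its libraries of untreated chow (5.15, 2.09 and 2.89 CPM) overlapped those of untreated HFD (6.43, 2.82 and 3.01 CPM) and of AQ HFD (3.19, 3.22 and 2.31 CPM), but AQ chow was tight at 4.72, 4.88 and 4.39 CPM. C3 and Serping1 correlated with each other at r 0.732 over 18 libraries and 0.786 within groups.

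Of 49 other complement genes listed, 23 have a row in the table. Absent are most genes of the terminal pathway (C6, C8a, C8b, C9 and Hc, which encodes C5) and the mannose-binding lectins, which are known as liver products. Among these 23, limma called Cd93, a receptor of endothelial cells linked to C1q, as higher with AQ on chow (74.5 against 51.1 CPM, difference 0.54 ± 0.097, adjusted p = 0.0208). No other was called in that comparison, where 1.11% of all genes were. In HFD against chow with AQ, Cd93 (58.1 against 74.5 CPM, -0.35 ± 0.097, adjusted p = 0.0281) and Fcna, ficolin A of the lectin pathway (1.58 against 2.92 CPM, -0.60 ± 0.180, 0.0392), were lower and none was higher. That is 2 of 23 genes, where limma called 10.6% of all genes in either direction and 5.68% as lower. Between the HFD control groups limma called 2 of the 23 higher and 1 lower in transgene controls, where it called 4.46% of all genes. The higher ones were Cd93 (0.42 ± 0.097, adjusted p = 0.0225) and Vtn, vitronectin (0.48 ± 0.131, 0.0456), and the lower one is not reported here. Without control replicate 1, Cd93 kept its call (0.44 ± 0.111, 0.0450) and Vtn lost it (0.38 ± 0.142, 0.165).

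In the remaining comparisons 0 of the 23 were called by limma, with 2, 4, 6 and 2 at an unadjusted p under 0.05 for diet, AQ on HFD (all lower), the difference of AQ effects (all lower) and the transgene. Over all genes the shares at that level were 9.53%, 6.62% lower, 8.44% lower and 8.95%. For diet the smallest p were those of Cfb (9.84 against 4.42 CPM, 0.98 ± 0.256, adjusted p = 0.225) and C3ar1, the receptor of C3a (0.50, 0.421). For AQ on HFD they were those of C7, a component of the pore (12.3 against 19.9 CPM, -0.62, adjusted p = 0.212), and Cfb (5.27 against 9.84 CPM, -0.78, 0.215). In the difference of AQ effects they were those of Cfb and Cd93 (-0.47, adjusted p = 0.123). For the transgene they were those of Cfp, properdin (9.67 against 6.5 CPM, 0.51, adjusted p = 0.323), and Cd59b (0.49, 0.362). Without control replicate 1 these were 0.67 (0.164) and 0.34 (0.617), and Itgam, a subunit of a receptor for C3 fragments, passed the threshold (0.67 ± 0.143, 0.0472). That library was the highest control for Itgam, at 7.58 CPM against 3.175 and 3.81. The median of the 23 in the difference of AQ effects was -0.33, with 18 of 23 below 0.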

How the data were processed

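Values are the authors' deposited CPM, a signal scaled per library: columns summed to 929993 to 1071538, and TMM factors recomputed in edgeR 4.0.16 gave the deposited scale. TopHat2 2.0.12, edgeR and GRCm38/mm10 are named in the submitters' processing notes. TRIzol extraction and single-end reads are given per the labels' protocols. Sources used here name no counting tool or annotation. Every value (100% within 1e-06) was a whole number of reads.

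The main test was two-sided limma 3.58.1 (R 4.3.3; lmFit, eBayes with trend) on log2(CPM + 1), 6 groups in a single fit with 12 residual degrees of freedom, with Benjamini-Hochberg adjustment over 12524 genes and a threshold of 0.05. Alternatives were pseudocounts of 0.25 and 4, no filter or at least 5 CPM, columns rescaled to the same sum, no trend, only the groups compared, a replicate block, removal of the GC trend (loess, span 0.3), edgeR's quasi-likelihood test and DESeq2 1.42.0 on the recovered reads, and leaving out each library. The fit was tested on simulated data. Libraries of a group differed beyond sampling noise (chi-square per degree of freedom at least 4.26). The complement genes and all lists were chosen with earlier results of these data known. All 9 genes of the set are named, and other complement genes where called or, where none was, the 2 with the smallest p. A result under this rule is left out of the text. For likeness the 10 genes with the highest Pearson r are named, leaving out unnamed gene models.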

Additional observations from a re-analysis of the deposited data

Results flagged for a closer look

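C4b was singled out because the AQ effects in the 2 diets differed by a test of the difference itself. The AQ difference on HFD minus that on chow was -1.94 ± 0.355 on the log2(CPM + 1) scale (limma adjusted p = 0.0253), with AQ libraries above all untreated ones on chow (3 of 3) and below all untreated ones on HFD (3 of 3). Over its alternatives, leave-one-out included, the adjusted p ran from 5.6e-05 in DESeq2 to 0.0789 without AQ HFD replicate 3.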

How the results depend on the processing

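Alternatives were counted for the 24 differences of single complement genes with an unadjusted p under 0.05 in limma. Of 468 values in all, 446 kept direction and side of the threshold, 17 fell back over it, 5 crossed it and 0 reversed. Most of the 24 were not called, so keeping the side mostly meant staying uncalled. All 17 losses fell on called differences. For HFD against chow with AQ, C4b lost its call in 7 of 18 alternatives, Serping1 in 4 of 18 and C3 in 2 of 18. C4b lost it in 4 of 24 for the difference of AQ effects. The number of complement genes called rose from 0 to 1 (C4b) under DESeq2 for HFD against chow and for AQ on HFD. With only the groups compared it rose from 1 to 2 for the difference of AQ effects (Serping1 added, adjusted p = 0.0457) and from 3 to 5 for HFD against chow with AQ (C2 and Cd59a added). Rescaling columns to the same sum left 1 there, C3. Leaving out 1 library gave 0 to 1 for the difference of AQ effects, 0 to 2 for HFD against chow with AQ and 0 to 1 for the transgene. The causes were not tested.

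Replicate numbers did not pair the libraries (r of same-numbered libraries -0.214 to 0.306, 5 of 24 over 0.1). In 10 of 24 comparisons of a library with the libraries of another group, the best correlation was with its own number. A replicate block left 1 complement gene called in the difference of AQ effects and 3 in HFD against chow with AQ. The block with the GC trend removed left 1 and 2, since C4b in the latter had an adjusted p of 0.0512.

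Counts over all genes moved by more than 1.5 times. Against 6, 6, 139 and 89 calls for diet, AQ on HFD, AQ on chow and the difference of AQ effects, alternatives gave 0 to 47, 0 to 224, 12 to 284 and 3 to 229. Against 1324, 75 and 559 for HFD against chow with AQ, the transgene and the control groups they gave 573 to 1728, 43 to 171 and 96 to 751. That rescaling changed the split of higher and lower calls from 613 and 711 to 833 and 375 for HFD against chow with AQ, from 2 and 4 to 4 and 2 for AQ on HFD, from 16 and 73 to 13 and 19 for the difference of AQ effects, and from 348 and 211 to 177 and 218 for the control groups.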

Other observations

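Genes induced by interferon and by acute-phase signals, both known as regulators of complement genes, were described beside them. Of 16 interferon genes listed 15 have a row. With AQ on HFD, where all 9 complement genes lay below 0, 15 of 15 interferon genes lay above 0 (median 0.31), as 6319 of all 12524 genes did. Limma called 0 of the 15, and 1 was higher at an unadjusted p under 0.05, against 645 of all genes. The smallest p were those of the guanylate-binding protein gene Gbp3 (9.59 against 5.14 CPM, 0.80 ± 0.255, limma adjusted p = 0.201) and the immunoproteasome gene Psmb8 (0.43, 0.425). With AQ on chow 14 of 15 lay above 0 (median 0.23, 0 called), and in the difference of AQ effects 6 of 15 (median -0.04, 0 called). Of all 12524 genes 6052 and 6421 did. In transgenic muscle 15 of 15 lay above 0 (median 0.36), as 6219 of all 12524 genes did. Of the 15, 0 were called and 5 were higher at an unadjusted p under 0.05, against 546 of all genes. The smallest p was that of Gbp7 (19.4 against 12.4 CPM, 0.57 ± 0.162, adjusted p = 0.158, or 0.260 without control replicate 1).

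Of 16 cytokine and acute-phase genes listed, 12 have a row. As a list they were mixed for diet, with 7 above and 5 below 0 (median 0.04). With AQ on HFD 10 of 12 lay below 0 (median -0.29), and with AQ on chow 7 did (median -0.14). In the difference of AQ effects 7 lay below and 5 above 0 (median -0.10). The acute-phase genes Hp (haptoglobin, also made by adipocytes) and Orm1 had differences of the same sign as C4b for diet, AQ on HFD and the difference of AQ effects, with 0 called by limma. Hp averaged 57.0 CPM on untreated HFD against 10.6 on untreated chow (2.20 ± 0.540, limma adjusted p = 0.167) and 13.2 on AQ HFD (-2.04 ± 0.540, 0.129). Its difference of AQ effects was -2.72 ± 0.764 (adjusted p = 0.106), and that of Orm1 -1.27 ± 0.398 (0.150). Of this list limma called Il1r1 lower on HFD than on chow with AQ (11 against 16.8 CPM, -0.58 ± 0.168, adjusted p = 0.0354) and Il6ra lower in transgene controls than in untreated HFD (4.30 against 8.67 CPM, -0.88 ± 0.154, adjusted p = 0.00425, or 0.0126 without control replicate 1). None was called in the other comparisons.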
